A study of Arabidopsis thaliana with 6 samples.

Results

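The genes described here are 26 protein-coding genes of the Arabidopsis thaliana plastid chromosome that serve gene expression and other tasks outside the photosynthetic complexes. They were chosen as the probe sets that the platform annotation pairs with a single plastid locus whose symbol does not begin with psa, psb, pet, atp, ndh or rbc, and each of the 26 loci had 1 such probe set. They comprise 4 rpo, 7 rpl, 8 rps and 7 other genes, out of 69 plastid loci with a single-locus probe set and 22746 probe sets tested in all. The genes rpl2, rpl23, rps7, rps12, ycf1 and ycf2 are present as 2 loci each and so have no single-locus probe set, and they are not members. A further 2 genes that match the symbol rule at 1 locus each were not measured either.

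Affymetrix ATH1 arrays were hybridised with RNA from whole seedlings 10 days old. The rns2-2 group held 3 arrays of seedlings carrying the rns2-2 mutation in the Col-0 background, and the Col-0 group held 3 arrays of the wild type. Both groups were raised on MS agar with 16 hours of light at 21 degrees C, and no chemical treatment was given. The rns2-2 mutation lies in RNS2, an RNase T2 enzyme of the endomembrane system and vacuole that takes part in the turnover of ribosomal RNA. The labels name a single mutant line and do not describe the lesion, a second allele or a complemented line. The design text speaks of seedlings grown in groups, so a value is not that of a single plant. The level of RNS2 was not analysed here. In whole seedlings, fewer plastid-rich cells and less plastid RNA per cell cannot be told apart.

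Plastids keep a small genome of bacterial descent and express it with machinery of their own. A bacterial-type RNA polymerase, whose core subunits are encoded by the rpo genes, transcribes mainly photosynthesis genes, and a phage-type polymerase encoded in the nucleus transcribes many housekeeping genes, the rpoB operon among them. Transcripts are often made from operons, are then cut, spliced and edited, and are translated by a bacterial-type ribosome that combines plastid-encoded rpl and rps proteins with proteins imported from the cytosol. Most plastid transcripts do not carry stable poly(A) tails. The labelling kit used here amplified from 3' ends, and how evenly it captured plastid transcripts was not tested.

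The deposited values are log2 signals, so a difference of 1 is a 2-fold difference. Array medians ran from 6.51 to 6.66, and no detection calls were used. Replicates 2 and 3 of each genotype were close to each other, and replicate 1 stood apart in both. The SD across probe sets of the log2 difference between replicates 2 and 3 was 0.31 in rns2-2 and 0.20 in Col-0. Against replicate 1 of the same genotype it was 0.59 and 0.61 in rns2-2 and 0.58 and 0.58 in Col-0. Across genotypes, replicate 1 gave smaller SDs than within its own genotype. For replicate 1 of Col-0 these were 0.54, 0.51 and 0.56 against the rns2-2 arrays. For replicate 1 of rns2-2 they were 0.54, 0.58 and 0.58 against the Col-0 arrays. By this measure the replicate 1 arrays did not group by genotype, a limit on every contrast of the genotypes. The labels call all samples independent. If replicates 2 and 3 shared material, p-values measure partly technical spread. Of the tissue markers chosen for the check of the labels, 0 of 9 shoot markers and 0 of 5 seed markers had a named probe set, and 3 of 5 root markers did. Among them, PYK10, a root-enriched glucosidase, had mean signals of 12.74 ± 0.14 for rns2-2 and 12.54 ± 0.16 for Col-0 (SD, n = 3 each). The means of EXPA7 (5.98 for rns2-2 and 5.87 for Col-0) and EXPA18 (6.01 and 5.77) lay below the array medians.

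The 26 genes lay mostly lower in rns2-2, but 0 of the 26 passed the test. In limma with Benjamini-Hochberg adjustment over all 22746 probe sets, their adjusted p ran from 0.290 to 0.909, and 1 probe set passed in the whole table (0.0044%). The log2 change was below 0 at 25 of the 26 genes, against 57.2% of all probe sets. The median change of the 26 genes was -0.51, and that of all probe sets was -0.04. An unadjusted limma p under 0.05 with a lower value in rns2-2 was found at 9 of the 26 genes, or 34.6%, against 5.31% of all probe sets. A higher value with such a p was found at 0 of the 26, against 5.35% of all probe sets. All rns2-2 arrays lay below all Col-0 arrays at 7 of the 26 genes, or 26.9%, against 11.2% of all probe sets. All rns2-2 arrays lay above all Col-0 arrays at 0 of the 26, against 7.23%. The 26 genes share arrays, operons and RNA samples, so these counts are not counts of independent observations.

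The count of 9 genes at an unadjusted p under 0.05 changed with the arrays used. With replicate 2 of rns2-2 left out it was 5 of 26 (19.2%), against 3.32% of all probe sets, and 1 further gene, rpl22, was higher at such a p (3.94% of all probe sets). It was also 5 with replicate 3 of Col-0 left out, against 2.67% of all probe sets. With replicate 1 of Col-0 left out it was 6 (23.1%), against 8.46%. With replicate 3 of rns2-2 left out it was 16 (61.5%), against 3.12%. With replicates 2 and 3 of each genotype only, it was 6 (23.1%), against 13.6% of all probe sets, so the members' share stood closer to the background than with all arrays. The count of 7 genes with no overlap changed as well. It was 14 (53.8%) after centring the arrays on their medians, against 16.5% of all probe sets. With replicate 2 of Col-0 left out it was 16 (61.5%), against 17.8%, and with replicate 3 of rns2-2 left out it was 17 (65.4%), against 16.3%. With replicates 2 and 3 only it was 11 (42.3%), against 34.0%. With replicate 1 of Col-0 left out it stayed at 7 (26.9%), against 23.5%, so there the members' share was near that of all probe sets.

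**Figure D1:**
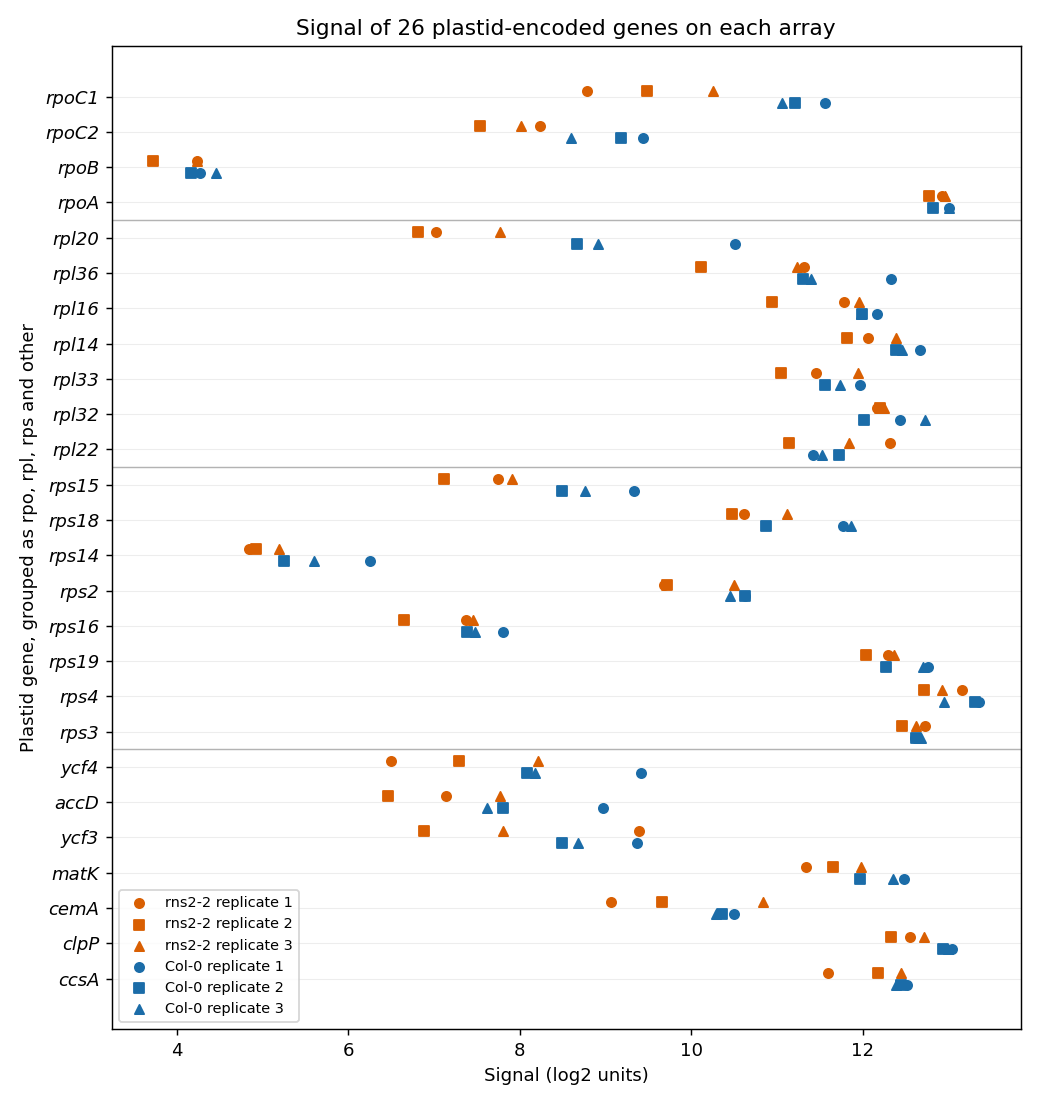
Signal in log2 units (horizontal axis) of the 26 plastid-encoded genes on each array, with rns2-2 in orange above Col-0 in blue in every row and 1 symbol shape per replicate number. At rpoC1, rpoC2, rpl20, rpl16, rps15, rps14 and clpP the 3 rns2-2 points lie below the 3 Col-0 points.

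The rpo genes encode the core of the bacterial-type plastid RNA polymerase. Of their 4 members, rpoC1 and rpoC2 had lower values in rns2-2, rpoA had a small difference and rpoB had a dim probe set. The gene rpoC1, which encodes the β' subunit, had the smallest p of the 26 genes. It stood at 8.79, 9.48 and 10.25 log2 units in rns2-2, against 11.56, 11.21 and 11.06 in Col-0. The highest rns2-2 array lay 0.80 units below the lowest Col-0 array. The log2 change was -1.77 (SE 0.37, 95% interval -2.67 to -0.86, limma adjusted p = 0.290), a 3.40-fold lower signal in rns2-2.

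The gene rpoC2, which encodes the β'' subunit and lies next to rpoC1, stood at 8.24, 7.54 and 8.01 in rns2-2, against 9.43, 9.18 and 8.59 in Col-0. The genotypes again did not overlap. This was a log2 change of -1.14 (SE 0.27, 95% interval -1.81 to -0.47, limma adjusted p = 0.316).

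For rpoB, which encodes the β subunit and is the other neighbour of rpoC1, the probe set was dim. It gave 4.23, 3.72 and 4.24 in rns2-2, against 4.27, 4.16 and 4.46 in Col-0. All 6 values lay below the 25th percentile of their arrays, a range where signal and background cannot be distinguished. Its log2 change of -0.23 (SE 0.18, limma adjusted p = 0.632) therefore carries little information on the rpoB transcript.

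The gene rpoA, which encodes the α subunit and sits in another operon among ribosomal protein genes, stood at 12.92, 12.77 and 12.96 in rns2-2, against 13.00, 12.82 and 13.00 in Col-0. The genotypes overlapped within a narrow range. Its log2 change was -0.06 (SE 0.11, limma adjusted p = 0.852), with a 95% interval of -0.32 to 0.21.

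The rpl genes encode proteins of the large ribosomal subunit. Their 7 measured members had a median log2 change of -0.41, and 6 of the 7 were below 0, against 57.2% of all probe sets. Of the 26 genes, rpl20 had the largest difference. It stood at 7.03, 6.81 and 7.77 in rns2-2, against 10.51, 8.67 and 8.91 in Col-0. The genotypes did not overlap, and replicate 1 of Col-0 lay well above its fellow arrays. This gave a log2 change of -2.16 (SE 0.53, 95% interval -3.45 to -0.88, limma adjusted p = 0.321), a 4.48-fold lower signal in rns2-2. With replicates 2 and 3 only, it was -1.50 (SE 0.28).

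At the other end stood rpl22, the 1 gene of the 26 with a higher mean in rns2-2. Its values were 12.32, 11.15 and 11.84 in rns2-2, against 11.42, 11.73 and 11.53 in Col-0. The rns2-2 arrays spread to both sides of the Col-0 arrays. Its log2 change was 0.21 (SE 0.30, limma adjusted p = 0.797), with an interval of -0.51 to 0.93, and it was below 0 without replicate 1 of rns2-2 (-0.07).

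The 5 remaining rpl genes had log2 changes between -0.79 and -0.19. For rpl36 the change was -0.79 (SE 0.42), and for rpl16 it was -0.49 (SE 0.27). Without replicate 2 of rns2-2 these changes were -0.40 and -0.18, and without replicate 1 of Col-0 that of rpl36 was -0.46. At rpl16 all rns2-2 arrays (10.94 to 11.96) lay below all Col-0 arrays (11.98 to 12.16), by a narrow gap at the top of the rns2-2 range. The genes rpl14 (-0.41, SE 0.17), rpl33 (-0.27, SE 0.24) and rpl32 (-0.19, SE 0.19) overlapped between genotypes. The adjusted p of these 5 genes ran from 0.475 to 0.714 in limma.

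The rps genes encode proteins of the small ribosomal subunit. All 8 measured members had log2 changes below 0, with a median of -0.50, where 57.2% of all probe sets were below 0. At 4 of the 8 (50.0%) the unadjusted limma p was under 0.05, against 5.31% of all probe sets lower at such a p. The gene rps15 stood at 7.74, 7.12 and 7.91 in rns2-2, against 9.33, 8.49 and 8.76 in Col-0. The genotypes did not overlap: the gap between them was 0.59 units, where the rns2-2 arrays spanned 0.79 and the Col-0 arrays 0.84. Its log2 change was -1.27 (SE 0.29, 95% interval -1.98 to -0.57, limma adjusted p = 0.311).

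The gene rps14 also had no overlap, at 4.84, 4.92 and 5.20 in rns2-2 against 6.25, 5.26 and 5.60 in Col-0, but its probe set was dim. All of its values lay below the array medians and may be partly background. The log2 change was -0.71 (SE 0.26, limma adjusted p = 0.440). The genes rps18 and rps2 had log2 changes of -0.77 (SE 0.31) and -0.60 (SE 0.24), with adjusted p of 0.465 and 0.455 in limma. Both overlapped between genotypes through replicate 3 of rns2-2, at 11.12 for rps18 and 10.50 for rps2, where the lowest Col-0 arrays stood at 10.87 and 10.46.

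The other 4 rps genes had smaller differences. These were -0.40 (SE 0.25) for rps16, -0.34 (SE 0.17) for rps19, -0.27 (SE 0.17) for rps4 and -0.04 (SE 0.11) for rps3. The values of rps3 were 12.73, 12.45 and 12.62 in rns2-2, against 12.61, 12.63 and 12.68 in Col-0. The interval of its change, -0.30 to 0.23, was the narrowest of the 26 genes.

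**Figure D2:**
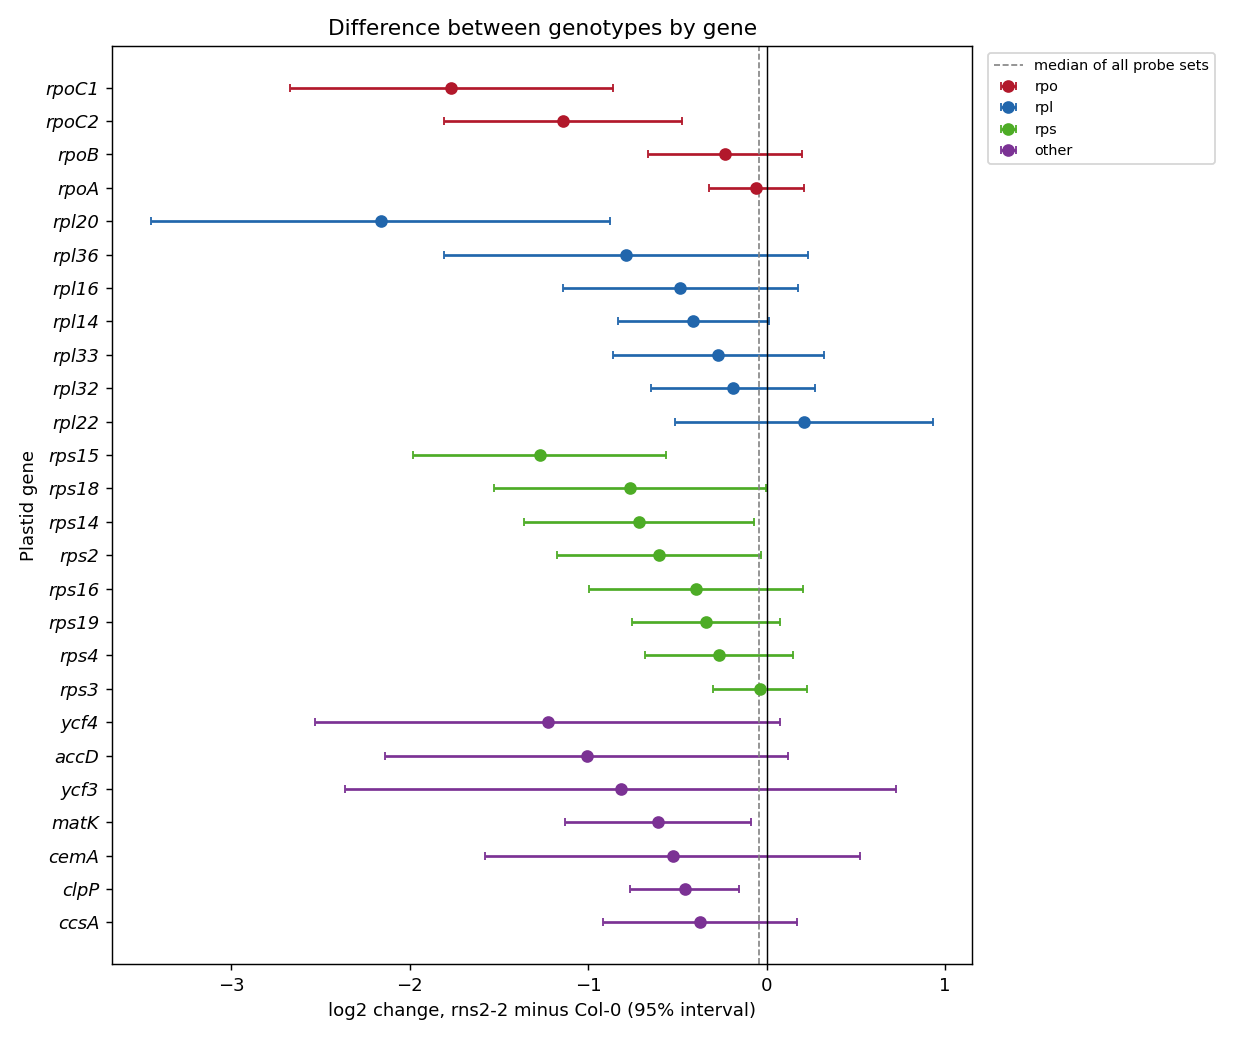
The log2 change of each gene, rns2-2 minus Col-0 (horizontal axis), with its 95% interval from the limma fit, coloured by gene group, and a dashed line at the median of all probe sets (-0.04). At 9 of the 26 genes the whole interval lies below 0 without adjustment for the number of tests, and rpl22 is the 1 gene with a change above 0.

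The 7 other genes code for proteins outside the polymerase and the ribosome. All 7 had log2 changes below 0, with a median of -0.61, where 57.2% of all probe sets were below 0. The gene clpP encodes a proteolytic subunit of the Clp protease of the stroma. It stood at 12.56, 12.34 and 12.71 in rns2-2, against 13.05, 12.93 and 13.00 in Col-0. The genotypes did not overlap, and the Col-0 arrays lay within 0.11 units of each other. The difference was small, with a log2 change of -0.46 (SE 0.13, 95% interval -0.77 to -0.15, limma adjusted p = 0.355).

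The gene matK, which lies within the intron of trnK and encodes a maturase for splicing group II introns, stood at 11.34, 11.65 and 11.99 in rns2-2, against 12.48, 11.97 and 12.36 in Col-0. Replicate 3 of rns2-2 and replicate 2 of Col-0 were nearly equal, so the groups overlapped. In matK the log2 change was -0.61 (SE 0.21, limma adjusted p = 0.421). With replicates 2 and 3 only it was -0.34 (SE 0.18).

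The gene accD, for the β subunit of the carboxyltransferase of plastid acetyl-CoA carboxylase, stood at 7.14, 6.46 and 7.77 in rns2-2, against 8.97, 7.81 and 7.62 in Col-0. The groups overlapped through replicate 3 of both genotypes, and replicate 1 of Col-0 was the highest. Its log2 change was -1.01 (SE 0.46, limma adjusted p = 0.497), and -0.59 (SE 0.38) without replicate 1 of Col-0.

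The genes ycf3 and ycf4 encode assembly factors of photosystem I. For ycf4 the values were 6.50, 7.29 and 8.21 in rns2-2, against 9.42, 8.09 and 8.18 in Col-0. The arrays of replicate 1 held the extremes of both genotypes. In the fit the change was -1.23 log2 units (SE 0.53, limma adjusted p = 0.481), and with replicates 2 and 3 only it was -0.38 (SE 0.27).

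For ycf3 the values were 9.39, 6.89 and 7.80 in rns2-2, against 9.36, 8.49 and 8.68 in Col-0. Replicate 1 of rns2-2 was the highest of all 6 arrays, and the rns2-2 arrays spanned 2.51 units, the widest range within a genotype among the 26 genes. The log2 change was -0.82 (SE 0.63, limma adjusted p = 0.639). It depended on single arrays, at -0.25 (SE 0.53) without replicate 2 of rns2-2, -0.56 (SE 0.71) without replicate 1 of Col-0 and -1.50 (SE 0.37) without replicate 1 of rns2-2.

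The gene cemA, for a protein of the inner envelope, ranged from 9.06 to 10.84 in rns2-2 and from 10.29 to 10.50 in Col-0, with a log2 change of -0.53 (SE 0.43). The gene ccsA, needed to attach haem to c-type cytochromes, ranged from 11.60 to 12.45 in rns2-2 and from 12.39 to 12.51 in Col-0, with a log2 change of -0.37 (SE 0.22). In both, replicate 1 of rns2-2 was the lowest array and replicate 3 of rns2-2 lay within or above the Col-0 range. With replicate 1 of rns2-2 left out, the change was -0.13 in both genes, and with replicate 3 of rns2-2 left out it was -1.02 in cemA and -0.56 in ccsA. Their adjusted p with all arrays were 0.655 and 0.570 in limma.

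With replicates 2 and 3 only, the genes that passed the adjusted threshold were rpoC1, rpl20, rpoC2, ycf3 and rps15. In that limma fit their log2 changes were -1.26 (adjusted p = 0.0110), -1.50 (adjusted p = 0.0111), -1.11 (adjusted p = 0.0163), -1.24 (adjusted p = 0.0196) and -1.11 (adjusted p = 0.0218). With these 2 arrays per genotype, 3262 of the 22746 probe sets passed (14.3%), so the share of 5 in 26 (19.2%) stands beside a much larger background than with all arrays.

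The polymerase genes were set beside the ribosomal protein genes. The median log2 change was -0.69 over the 4 rpo genes and -0.41 over the 15 rpl and rps genes, a difference of -0.28. Without replicate 2 of rns2-2 the median of the 15 rpl and rps genes was -0.24. The rpo changes ran from -1.77 to -0.06, and the rpl and rps changes ran from -2.16 to 0.21, so the range of the rpo genes lay inside that of the ribosomal genes. Relative to each gene's Col-0 mean, the rpo median minus the ribosomal median was -0.15, -0.27 and -0.39 on the rns2-2 arrays, against -0.01, 0.10 and -0.01 on the Col-0 arrays. The rns2-2 arrays thus lay below the Col-0 arrays in this measure. It rests on 4 rpo genes, of which rpoB is dim. Without probe sets below the 25th percentile, which removes rpoB, the rpo median was -1.14 and the difference was -0.73. No test of the difference between the gene groups was made.

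**Figure D3:**
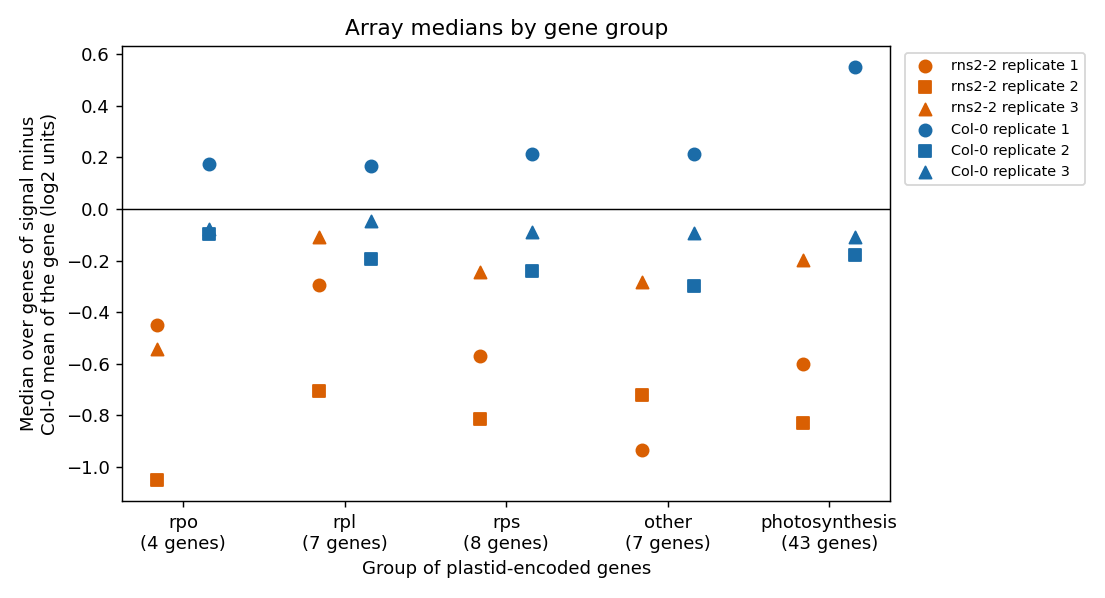
For each array, the median over the genes of a group of the signal minus the gene's Col-0 mean (vertical axis, log2 units), with rns2-2 in orange left of Col-0 in blue. The rpo medians are -0.45, -1.05 and -0.54 on the rns2-2 arrays and 0.17, -0.09 and -0.08 on the Col-0 arrays. In the rpl genes replicate 3 of rns2-2 (-0.11) lies above replicate 2 of Col-0 (-0.19). The same holds in the other genes (-0.28 and -0.30), and in the rps genes these arrays are nearly equal (-0.244 and -0.241).

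The genes differed along the plastid chromosome, and near neighbours were unlike in some runs and closer in others. The changes were -0.61 and -0.40 at the neighbours matK and rps16, and -0.19 and -0.37 at rpl32 and ccsA. In RefSeq order, rps2, rpoC2, rpoC1 and rpoB follow each other, and their log2 changes were -0.60, -1.14, -1.77 and -0.23. The value of rpoB comes from its dim probe set. In the run rpl33, rps18, rpl20 and clpP, which also holds the unmeasured rps12, the changes were -0.27, -0.77, -2.16 and -0.46. The gene rpl20 thus had a change 1.89 units below that of rpl33, the highest of its run. The longest measured run held rpoA, rpl36, rpl14, rpl16, rps3, rpl22 and rps19, with changes of -0.06, -0.79, -0.41, -0.49, -0.04, 0.21 and -0.34 and a median of -0.34. Its locus numbers skip between rpoA and rpl36 and between rpl36 and rpl14, so these genes need not be direct neighbours. Strand and operon limits were not in the tables used here, so neighbours are given by position alone.

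**Figure D4:**
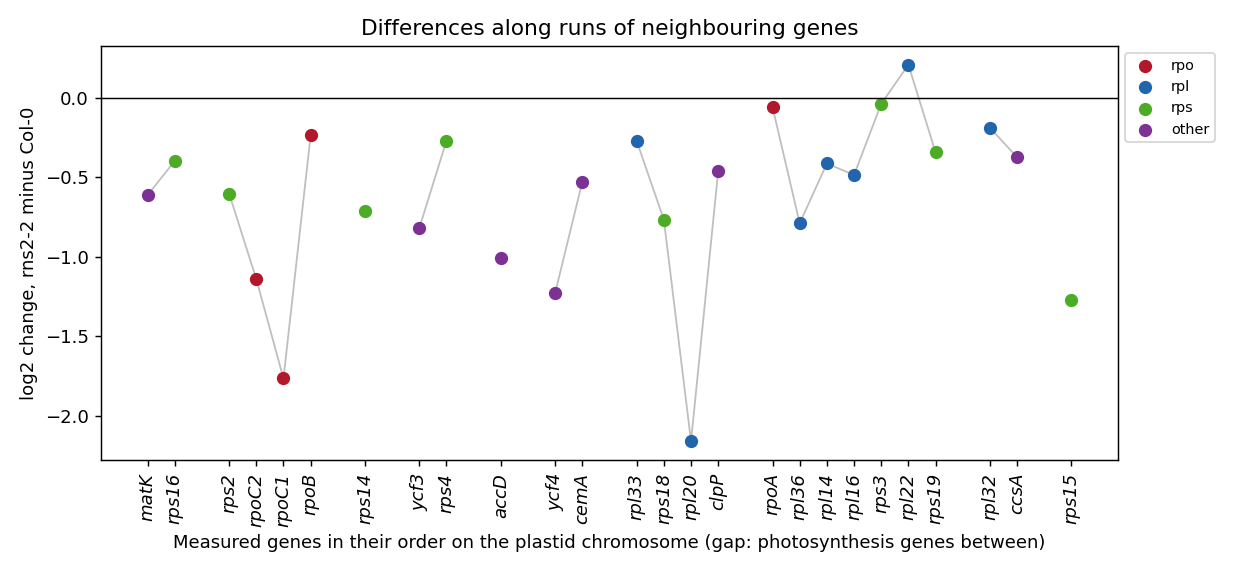
The log2 change, rns2-2 minus Col-0 (vertical axis), of the 26 genes in their order on the plastid chromosome, with grey lines joining measured genes that have no photosynthesis gene between them. The values dip to -1.77 at rpoC1 and -2.16 at rpl20, while the run from rpoA to rps19 stays between -0.79 and 0.21.

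The members also differed in brightness, which depends on the probes as well as on the transcript. The 13 members with the higher mean signals (11.28 to 13.07 log2 units) had a median log2 change of -0.34 and a lowest change of -0.79. The 13 with the lower mean signals (4.18 to 11.12) had a median of -0.82 and a lowest change of -2.16, and all 6 changes of 2-fold or more were among them (6 of 26 is 23.1%, against 1.66% of all probe sets at 2-fold or more lower). Across the 26 genes, mean signal and log2 change correlated at a Spearman rho of 0.571. Gene length and log2 change correlated at -0.110. The genes share the same 6 arrays, and both measures of the first relation come from the same values.

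The arrays contributed unequally. Replicate 1 of Col-0 was the highest of the 6 arrays at 18 of the 26 genes, and replicate 2 of rns2-2 was the lowest at 18. Replicate 1 of rns2-2 was the lowest at 7 genes and the highest at 3. Relative to the Col-0 means, the medians over the 26 genes were -0.44, -0.75 and -0.24 on the rns2-2 arrays, against 0.19, -0.16 and -0.07 on the Col-0 arrays. The arrays of the genotypes did not overlap in this median, though replicate 3 of rns2-2 and replicate 2 of Col-0 were only 0.09 units apart. The SD between arrays had a median over genes of 0.43 in rns2-2 and 0.24 in Col-0.

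A sign of RNA quality differed between the arrays as well. The mean log2 difference between 3' and 5' probe sets of the actin, GAPDH and ubiquitin controls, over 6 pairs, was 1.49, 1.93 and 2.44 on the rns2-2 arrays, against 3.01, 1.98 and 2.26 on the Col-0 arrays. It was highest on replicate 1 of Col-0, which also had the highest plastid median, and lowest on replicate 1 of rns2-2. Replicate 2 of rns2-2 (1.93), which had the lowest plastid median, was close to replicate 2 of Col-0 (1.98). Replicate 3 of rns2-2 (2.44) stood above replicates 2 and 3 of Col-0, but its plastid median of -0.24 lay below theirs (-0.16 and -0.07). The bacterial RNA controls that are added to the sample before labelling gave mean signals of 5.66, 6.22 and 6.43 on the rns2-2 arrays, against 5.95, 5.51 and 5.53 on the Col-0 arrays. Their part in the plastid differences was not tested.

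The 43 plastid-encoded photosynthesis genes gave a similar picture in counts. Their median log2 change was -0.46, with 35 of 43 (81.4%) below 0, against 57.2% of all probe sets. At 14 of 43, or 32.6%, the unadjusted limma p was under 0.05 with a lower value in rns2-2, against 5.31%. The share of 2-fold or more lower values was 32.6% among them and 23.1% among the 26 genes described here, against 1.66% of all probe sets. Replicate 1 of Col-0 was again the highest array, at a median of 0.55. The difference between these groups of genes was not tested.

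Few nuclear partners of these genes had a named probe set. Of 41 listed genes for organelle polymerases, sigma factors, polymerase-associated proteins, plastid RNA decay, the Clp protease and acetyl-CoA carboxylase, 3 were measured, and 0 passed in limma in either direction, over all probe sets or without adjustment at p under 0.05. RPOTmp, a phage-type polymerase of mitochondria and plastids, had a log2 change of -0.04 (SE 0.20), with means of 5.52 ± 0.20 for rns2-2 and 5.56 ± 0.34 for Col-0 (SD, n = 3 each), below the array medians. CLPP4 and CLPR3, nuclear-encoded partners of the clpP product in the Clp core, had log2 changes of 0.18 (SE 0.22) and 0.14 (SE 0.16). CLPP4 stood at 11.94, 11.43 and 11.43 in rns2-2, against 11.05, 11.67 and 11.55 in Col-0, so the genotypes overlapped and the plastid-encoded clpP, at -0.46, had the opposite sign. The difference between them was not tested.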

How the data were processed

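Affymetrix ATH1 arrays were measured for 3 rns2-2 and 3 Col-0 samples, each labelled from 250 ng of total RNA. The deposited values are log2 signals per probe set, which the authors produced with Affymetrix Expression Console according to the submitters' processing notes. The scale was read from the values (3.21 to 14.49), and the algorithm and any normalization between arrays are not stated there. The table held 22810 probe sets, of which 64 controls were left out. Names came from the platform annotation and a RefSeq gene table (TAIR10.1), which paired 13436 probe sets with 1 locus and left 8730 unnamed. That table served for names and gene order only.

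The difference rns2-2 minus Col-0 was tested two-sided by limma (version 3.58.1, under R 4.3.3, functions lmFit and eBayes), with Benjamini-Hochberg adjustment over 22746 probe sets, and an adjusted p under 0.05 counted as passing. Dim probe sets were kept, and replicate numbers did not enter the model. Standard errors and 95% intervals are those of this fit, and their precision is limited by having 3 arrays per genotype. The step was tested on simulated data. The members, gene lists and named genes were chosen with earlier results of these data known. All members are named. Values on every array are given for the rpo genes, the 6 smallest p, the highest change, matK, clpP and accD. Values for rps14, rps3, ycf3, ycf4 and CLPP4 were added after they were seen. Gene group medians have no test. Deviations of same-numbered arrays from their genotype means correlated at 0.059, -0.062 and 0.136, so the replicate numbers were not taken as pairs. Alternatives were other normalizations, filters, variance priors, array weights, a replicate block and left-out arrays.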

Additional observations from a re-analysis of the deposited data

How the results depend on the processing

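The medians of the members, the rpo genes and the rpl and rps genes stayed below 0 in all 16 alternative fits. The number of members past the adjusted limma threshold stayed at 0 in 15 of them and was 5 with replicates 2 and 3 only. That count was 9 for an unadjusted p under 0.05. Over the whole table, 1 probe set passed in the unweighted fit of 6 arrays, 435 after weighting the arrays, 3262 with replicates 2 and 3 only, 2425 at an unadjusted p under 0.05, and 1 to 333 without single arrays, the highest without replicate 1 of Col-0. Members whose genotypes do not overlap numbered 7, and 14 with median centring (rns2-2 lower at 16.5% of all probe sets), 11 with replicates 2 and 3 only (34.0%) and 7 to 17 without single arrays (12.1% to 23.5%). The filter at the 25th percentile removed rpoB and that at the median removed rpoB and rps14. The rpo median was then -1.14 in both, and the difference from the ribosomal genes was -0.73 and -0.74, where the ribosomal median without rps14 was -0.40. Of 413 alternative values of single members, 5 changed sign, all close to 0: rpl22 with array weights (-0.083), with replicates 2 and 3 only (-0.14) and without single arrays (-0.067 to 0.52), rpl32 with array weights (0.0002), and rps3 without single arrays (-0.10 to 0.037). The cause was not tested. With the replicate block, 0 members and 1 probe set passed in limma, and the median of the members was -0.51, so no call changed. Each locus had 1 probe set, so averaging probe sets per locus could not change a value and was not run. With no detection calls, rpoB and rps14 could not be set against background.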

Other observations

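Outside the single-locus genes, 8 probe sets were paired with several plastid loci each and are left unnamed. Their log2 changes, rns2-2 minus Col-0, ran from -0.87 to 0.31 with a median of -0.66. Of the 8, 6 were below 0, against 57.2% of all probe sets. All rns2-2 arrays lay below all Col-0 arrays at 4 of them, against 11.2% of all probe sets. The adjusted limma threshold was passed by 0 of the 8 (smallest adjusted p = 0.290). An unadjusted limma p under 0.05 was found at 4 of the 8, where 5.31% of all probe sets were lower and 5.35% higher at such a p.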
